A study of Homo sapiens with 20 samples.

Results

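In human lung cancer cell lines, 12275 promoter regions of open chromatin were found in each of 8 Omni-ATAC-seq libraries, out of 208376 regions in all. The peaks of the 8 lists were pooled, and peaks that overlapped by at least 1 bp were merged into regions. A region was kept when a peak of every list lay in it and when its smallest distance to a transcription start site (TSS) was at most 3000 bp, so the regions were selected on the peak calls themselves. They are called constant promoters here. For comparison, 7839 regions lay farther from a TSS and were also present in all 8 libraries (distal regions), and 19013 promoter regions were present in 1 to 7 libraries (variable promoters).

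The libraries came from A549, H1299, CL1-5 and PC9, lung cancer lines grown in culture. Each line was either Mock-treated or given decitabine (DAC), a cytidine analog that traps and depletes DNA methyltransferases, at 100 nM for 3 days (72 h) followed by 3 days without drug. There was 1 library per line and treatment, so the lines were the replicates. mRNA-seq was available for the same lines and for CL1-0 and H1792, again Mock and DAC, in 12 libraries. The labels of the study call 4 peak lists CL1-5 or PC9, while the peak names inside those lists carry the other of these names. Samples are therefore given as labelled, and each match of the ATAC-seq to the mRNA-seq was repeated with the names exchanged.

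A promoter is the stretch of DNA around a TSS where the transcription machinery assembles. At active genes it is depleted of nucleosomes, which lets the Tn5 transposase of ATAC-seq cut there. Many genes that all cells use have promoters in CpG islands, stretches rich in CpG dinucleotides that usually carry no DNA methylation, while promoters with a TATA box more often belong to regulated, tissue-specific genes. Factors such as Sp1 at GC boxes, NF-Y at CCAAT boxes, ETS factors and NRF1 bind in promoters of the first kind.

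The bases before the gene start are shown for 8 genes at constant promoters, because they carry the comparisons that follow. FSIP1 and PLPPR3 had a high and a low rank among constant promoters, and CCDC89 and GAA moved up and down in rank after DAC in each line. HIST1H2BD and HIST2H2BE changed in mRNA, ENPP3 had almost no mRNA, and MECR differed between lines. The stretches, read from GRCh37 (hg19) in the direction of the gene, were chr15:40075043-40075242 for FSIP1 (minus strand), chr19:821956-822155 for PLPPR3 (minus), chr11:85397239-85397438 for CCDC89 (minus), chr17:78075132-78075331 for GAA (plus), chr6:26158150-26158349 for HIST1H2BD (plus), chr1:149858233-149858432 for HIST2H2BE (minus), chr6:131949383-131949581 for ENPP3 (plus) and chr1:29557455-29557654 for MECR (minus). Each ends at the base before the gene start of the GENCODE annotation, contains no annotated UTR, and has a start that lies in the constant promoter. Capitals mark matches to the 9 motifs listed further down.
FSIP1: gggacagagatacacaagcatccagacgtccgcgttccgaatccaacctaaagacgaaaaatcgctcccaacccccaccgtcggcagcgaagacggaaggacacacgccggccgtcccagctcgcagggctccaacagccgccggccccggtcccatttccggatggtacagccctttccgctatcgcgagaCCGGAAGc
PLPPR3: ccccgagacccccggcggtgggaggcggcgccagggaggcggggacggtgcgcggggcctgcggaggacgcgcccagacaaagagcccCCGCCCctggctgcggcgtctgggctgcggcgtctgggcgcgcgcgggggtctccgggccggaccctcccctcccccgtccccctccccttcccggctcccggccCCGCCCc
CCDC89: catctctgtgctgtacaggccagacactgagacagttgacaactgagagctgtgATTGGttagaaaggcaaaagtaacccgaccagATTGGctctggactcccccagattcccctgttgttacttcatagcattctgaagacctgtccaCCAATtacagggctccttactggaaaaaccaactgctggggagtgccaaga
GAA: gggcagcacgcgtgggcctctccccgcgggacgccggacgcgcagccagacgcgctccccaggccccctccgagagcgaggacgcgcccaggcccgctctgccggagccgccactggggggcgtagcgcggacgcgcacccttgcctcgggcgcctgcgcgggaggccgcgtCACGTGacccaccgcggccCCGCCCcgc
HIST1H2BD: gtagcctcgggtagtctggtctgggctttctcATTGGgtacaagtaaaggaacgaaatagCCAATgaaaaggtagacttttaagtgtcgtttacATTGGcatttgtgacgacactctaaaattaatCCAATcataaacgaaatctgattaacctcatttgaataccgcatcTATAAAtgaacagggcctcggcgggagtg
HIST2H2BE: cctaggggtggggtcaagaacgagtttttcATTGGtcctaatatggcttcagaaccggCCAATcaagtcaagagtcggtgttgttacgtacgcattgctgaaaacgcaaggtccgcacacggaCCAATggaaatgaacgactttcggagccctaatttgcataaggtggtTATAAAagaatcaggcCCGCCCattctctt
ENPP3: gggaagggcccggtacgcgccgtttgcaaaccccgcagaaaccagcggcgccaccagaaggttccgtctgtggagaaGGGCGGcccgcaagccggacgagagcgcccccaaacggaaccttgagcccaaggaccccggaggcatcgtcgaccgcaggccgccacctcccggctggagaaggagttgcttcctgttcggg
MECR: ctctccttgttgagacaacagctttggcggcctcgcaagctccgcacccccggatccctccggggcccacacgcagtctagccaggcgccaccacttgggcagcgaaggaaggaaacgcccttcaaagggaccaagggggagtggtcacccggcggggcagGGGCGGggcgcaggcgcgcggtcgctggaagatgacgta
FSIP1, ENPP3, GAA, PLPPR3 and MECR read as CpG-rich DNA. The FSIP1 stretch held 22 CpG dinucleotides and 1 ETS match next to the gene start, the ENPP3 stretch 21 CpG, and the GAA stretch 33 CpG with a GC box and an E-box. The CCDC89 stretch held 1 CpG and 3 CCAAT boxes. The histone genes held 4 (HIST1H2BD) and 3 (HIST2H2BE) CCAAT boxes and 1 TATA box each.

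Presence in all libraries and closeness to a TSS went together in the merged regions. Of the regions found in all 8 libraries, 61.0% were promoter regions, against 7.51% of those found in 1 library and 22.5% of those found in 7. A TSS lay within 90.4% of the constant promoters and within 29.1% of the variable ones. Constant promoters had a median span of 1340 bp, compared with 581 bp for variable promoters. At the edges of the rule, 158 constant promoters 2501 to 3000 bp from a TSS had a median percentile of 62.4, and 143 regions in all libraries just outside, at 3001 to 3500 bp, had 57.6. The 1374 promoter regions that missed 1 library had a median percentile of 51.2, against 81.8 for the constant promoters. These values describe the choice and are not tested.

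Rank is given as the percentile of a region's strongest peak in the fold enrichment of its library's own list, with 100 as the strongest peak. Fold enrichment is the signal of a peak over the local background. In every library the median constant promoter stood above the median distal region and above the median variable promoter. The medians of constant promoters by library were 81.0 (A549 Mock), 84.9 (A549 DAC), 81.1 (H1299 Mock), 86.3 (H1299 DAC), 79.9 (CL1-5 Mock), 77.5 (CL1-5 DAC), 84.0 (PC9 Mock) and 88.2 (PC9 DAC). Distal regions in all libraries had medians of 63.5 to 79.1 and variable promoters of 31.1 to 39.6. Constant promoters held 13 to 27.8% of the peaks of a list.

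**Figure D1:**
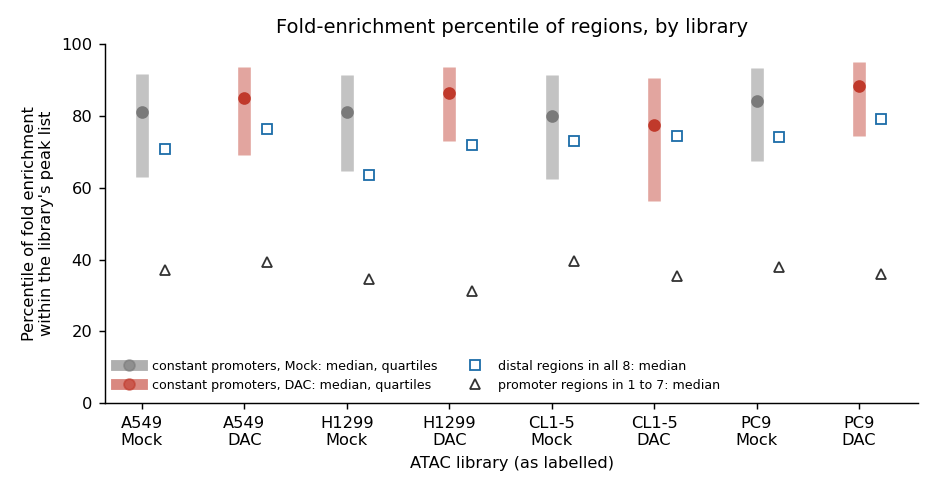
Percentile of fold enrichment within each ATAC library's peak list (y axis) by library (x axis); filled circles are medians of the 12275 constant promoters, bars run from the lower to the upper quartile, squares are medians of distal regions in all 8 libraries and triangles medians of promoter regions in 1 to 7 libraries. Constant promoters had medians of 77.5 to 88.2, above the other regions in each library.

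The libraries labelled CL1-5 stood apart. Constant promoters took 33.6% (Mock) and 31.9% (DAC) of their 1000 strongest peaks, against 61.1 to 75.6% in the other 6 libraries. Results that rest on all lines are given with and without this line where it matters. Depth differed between lists in an unknown way, since no read number per ATAC library was used here. The lists held 45354 to 97584 peaks, and in each line the DAC list was the longer.

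By mean percentile the 5 highest were those named GUSBP9, SMA5, DUX4L3, GCA and FSIP1. GUSBP9, SMA5 and DUX4L3 belong to families with near-identical copies, where reads of several copies can be placed on one, so their fold enrichments are uncertain. FSIP1, a gene for a fibrous sheath interacting protein, had fold enrichments of 15.4 and 15.3 (A549 Mock and DAC), 14.6 and 12.2 (H1299), 13.7 and 9.02 (CL1-5), and 13.2 and 12.5 (PC9). All 8 values were high, with CL1-5 DAC the lowest. GCA encodes the calcium-binding protein grancalcin, and its region lay 24997 bp from the annotated gene start, at another start inside the gene.

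The 5 weakest were those named HES1, CIRBP, MIR3187, PLPPR3 and RADIL. They were close to the lowest fold enrichments that were called as peaks at all. The CIRBP and RADIL regions lay 5948 and 81595 bp from the annotated gene starts, so they do not describe the main starts of these genes. The HES1 region, 927 bp into the gene of this Notch target, had percentiles of 0.0520 to 4.04, and PLPPR3, a gene of the phospholipid phosphatase-related family, had 0.423 to 3.15. PLPPR3 had fold enrichments of 2.77 and 2.41 in A549 (Mock and DAC), 2.24 and 1.87 in H1299, 2.27 and 2.31 in CL1-5, and 2.2 and 2.04 in PC9. Some of the weakest regions were wide, as MIR3187 had a mean summed peak width of 2990 bp and CIRBP, the gene of a cold-inducible RNA-binding protein, 1731 bp. Among the 5 widest constant promoters were those of HCFC1R1 (3457 bp), ROCK1P1 (3334 bp), PRR36 (3307 bp) and GADD45B (3264 bp). GADD45B encodes a stress-induced protein, and its region spanned 1746 to 5445 bp among the libraries.

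Constant promoters differed from the other regions in sequence. The rule did not use sequence itself, but it used closeness to a TSS. A TSS lay within 90.4% of constant promoters and 29.1% of variable ones, and distal regions were more than 3000 bp away. In the 300 bp around the peak centre, the median GC content was 68.7% in constant promoters, 57.0% in variable promoters and 57.3% in distal regions. By a GC content above 50% and an observed-to-expected CpG ratio above 0.6, 83.7% of constant promoters were CpG-rich, compared with 17.2% of variable promoters and 20.53% of distal regions. Rank and CpG content went together inside the group, as 94.2% of the 3064 highest-ranked and 67.6% of the 3064 lowest-ranked constant promoters were CpG-rich. A start of a protein-coding gene lay in 72.1% of constant promoters, and 5.97% held a divergent pair of coding starts, against 0.174% of variable promoters. The classes were not matched in width or in distance to a TSS, and a wider region holds more starts. These differences can therefore not be separated from position.

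Motifs were searched on both strands in the 200 bases before the start of 18460 protein-coding genes, of which 11097 were at constant promoters, 4766 at variable promoters and 2597 at neither. The GC box (GGGCGG) was present before 57.9% of genes at constant promoters, 37.6% at variable promoters and 28.8% with neither, and before 48.6% of all. An ETS motif (CCGGAAG) was present before 10.8%, 3.84% and 6.58%, and before 8.43% of all. The NRF1 core (GCATGCG) was present before 4.39%, 1.95% and 3.39% (3.62% of all), and the CRE core (TGACGTC) before 4.14%, 2.12% and 2.54% (3.39% of all). Each of these was most frequent at constant promoters. The TATA box (TATAAA) went the other way, with 4.61%, 9.57% and 14.2% (7.25% of all), as did the AP-1 motif (TGANTCA), with 3.28%, 6.06% and 5.39% (4.30% of all). CCAAT, matched by NF-Y, separated the classes little, with 29.1%, 26.8% and 34.6% (29.3% of all). Among constant promoters it was present before 40.0% of the 2775 highest-ranked and 21.8% of the 2774 lowest-ranked genes. The YY1 motif (AAGATGG) with 2.73%, 2.08% and 3.50% (2.67% of all) and the E-box (CACGTG) with 7.07%, 5.58% and 5.04% (6.40% of all) varied less. A match is a description of letters and not of binding. Genes were classed by the names on regions, while the bases were read before the annotated gene start. Of 11716 genes with a constant promoter, this start lay in the region for 76.7% and more than 3000 bp away for 14.0%. Some genes of the other classes start inside a constant promoter named for another gene. The bases are thus not always those of the region that set the class.

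Families that every cell needs had constant promoters in 75 to 88.2% of their genes, which is to be read against the share of expressed genes in general. Of the genes with a symbol in the mRNA table, 52.9% had a constant promoter that carried their name. Among the genes of the table with an FPKM (fragments per kilobase of transcript, scaled to library size) of at least 1, the share was 71.3 to 78.4% by library, at 10 or more it was 80.1 to 82.7%, and at 100 or more 65.6 to 77.4%. In the lists it was 77.9% of 86 ribosomal protein genes, 85.9% of 78 mitochondrial ribosomal protein genes, 79.5% of 39 proteasome subunits, 78.4% of 37 respiratory complex I subunits, 78.9% of 57 translation initiation factors, 75% of 12 RNA polymerase II subunits, 85.7% of 28 splicing factors, 88.2% of 34 tRNA synthetases and 82.4% of 17 housekeeping enzymes. All 20 cell cycle genes had one. Of the 388 genes in the 9 lists before the cell cycle, 72 had none under their own name. For 36 of those 72 the start lay inside a constant promoter that the peak annotation had named for a neighbouring gene, so these shares count names and not starts.

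Within these families, MRPS36 stood highest among mitochondrial ribosomal proteins (mean percentile 99.3) and MRPS34 lowest (43.9). For ribosomal proteins the range ran from RPL7A (34.3) to RPL39L (98.5), for proteasome subunits from PSMA7 (64.7) to PSMA5 (98.1), for complex I from NDUFS6 (34.0) to NDUFB4 (97.9), and for tRNA synthetases from YARS2 (80.0) to RARS2 (98.7). EIF2A (97.8) and EIF4EBP3 (55.4), POLR2G (94.97) and POLR2E (59.9), SNRPG (97.9) and SF3B3 (55.0), and PGK1 (99.3) and TPI1 (24.1) were the ends of their lists. The cell cycle genes lay between MCM7 (76.2) and MCM3 (99.3), both subunits of the replicative helicase.

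Zinc finger genes, large in number and mostly encoding repressors of repeated DNA, had constant promoters in 66.9% of 514 cases, from ZNF394 (3.86) to ZNF25 (99.8). Kinesin motors had them in 78.9% of 38 genes, from KIF26A (44.1) to KIF27 (99.2), and tubulins in 56.5% of 23, from TUBB3 (33.4) to TUBG1 (94.4). Tissue-restricted families were below the general share of 52.9%. Of 46 keratin genes 10.9% had a constant promoter, with KRT8 (69.7) highest and KRT81 (43.6) lowest, and none of 23 MAGE cancer testis genes and none of 150 olfactory receptor genes had one. Histone cluster genes had them in 56.5% of 62 cases, from HIST4H4 (30.1) to HIST1H4D (87.1).

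Genes of the epigenetic machinery were next, to be read against the same 71.3 to 78.4% of genes with at least 1 FPKM. Of 14 genes that write, read or remove DNA methylation, 12 had one, from TET3 (22.1), a demethylating dioxygenase, to TDG (99.6), the glycosylase that excises its products. DNMT3L, a catalytically inactive cofactor, and MBD4, a glycosylase, had none under their names. DNMT3L had at most 0.0232 FPKM in the 8 libraries of the 4 lines, but MBD4 had 7.80 to 13.1 FPKM. The start of an expressed gene can lie in a region named for another gene, so MBD4 cannot be taken as closed. The targets of DAC were all among the 12, with mean percentiles of 85.3 for DNMT1, 70.1 for DNMT3A and 76.0 for DNMT3B. All 12 histone deacetylase and SMARCA4 genes had one, from HDAC10 (38.2) to HDAC4 (96.5). The promoters of these genes did not pass the test for a change after DAC.

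Among 18 ligands and adhesion molecules of γδ T cells, 14 had a constant promoter, from RAET1E (37.7) to ULBP3 (95.9), both genes of NKG2D ligands. ICAM1, MICA, MICB and TNFRSF10B had none. Of 17 genes in a cytoskeleton list put together here, in part from genes the study names, 10 had one. They ran from ACTG1 (9.47), which encodes cytoplasmic actin, to TUBG1 (94.4). DES, EVPL, EVPLL, FES, GFAP and HCLS1 were among those with none. Of 25 interferon-stimulated genes 13 had one, from BST2 (35.6) to IFI6 (94.1), and of 15 genes of MHC class I and antigen processing 3 had one, from CALR (84.4) to PDIA3 (90.9). Of these 15, 7 had no promoter region under their name in any library, while the list summed to 531 to 1464 FPKM by library. These counts are of names and not starts, so a gene without one may still have an open start.

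Markers of cell type were checked in the same libraries. Of 6 epithelial markers, 3 had constant promoters (KRT18 at 53.6 lowest and KRT8 at 69.7 highest), and the summed epithelial level was 111 to 3016 FPKM over the 8 mRNA libraries of the 4 lines. None of the 6 leukocyte markers had one, and their summed level was 0.718 to 8.73 FPKM. Of fibroblast markers COL1A1 (64.5), and of endothelial markers KDR (66.2), had one, and these lists summed to 0.279 to 4.29 and 0 to 2.08 FPKM.

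The question of the study was how DAC changes the cells, and constant promoters as a group changed little in rank. The median percentile moved from 81.0 to 84.9 in A549, from 81.1 to 86.3 in H1299, from 79.9 to 77.5 in CL1-5 and from 84.0 to 88.2 in PC9. The median of the region-by-region differences (DAC minus Mock) was 2.34, 3.50, -1.66 and 2.44 percentile points, a mean of 1.65 ± 2.27 (SD, n = 4 lines), which an exact two-sided sign-flip permutation test did not separate from 0 (p = 0.25, where the smallest p that 4 lines allow is 0.13). Without CL1-5 the mean was 2.76 ± 0.64 and above 0 in 3 of 3 lines, where the exact test cannot go below 0.25, and without H1299 it was 1.04. The sign of the mean changed with list length. When every list was shortened to its 45354 strongest peaks, 9023 constant promoters were left and the mean was -0.89 ± 2.02 percentile points (exact sign-flip permutation p = 0.625). By line the values were then -0.41 in A549, -0.10 in H1299, -3.83 in CL1-5 and 0.78 in PC9. The negative mean thus came mostly from CL1-5, and the lines did not share a direction.

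Width changed as little. The median log2 ratio of summed peak width, DAC over Mock, was -0.01 in A549, 0.07 in H1299, 0.02 in CL1-5 and 0.05 in PC9 (mean 0.03 ± 0.04, SD, n = 4; exact sign-flip permutation p = 0.25). In percentiles and raw widths, distal regions in all libraries had the higher change in each line. Their rank change exceeded that of constant promoters by 1.13 ± 0.65 percentile points (SD) and their log2 width ratio by 0.05 ± 0.01 in 4 of 4 lines, each with the smallest exact permutation p the design allows, 0.13. The percentiles carry the difference in list length, and on the normalised log2 scale the order was not stable. The median change in fold enrichment was -0.0041 for constant promoters and 0.0053 for distal regions, but 0.0015 and -0.00049 with equal numbers of peaks, and 0.0060 and -0.0096 without CL1-5. Ranks of constant promoters kept their order within a line, with Spearman correlations of fold enrichment between Mock and DAC of 0.880 to 0.945 over the 12275 regions. Between libraries of different lines they were 0.736 to 0.881. Regions share their library, so these correlations are descriptions.

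Region by region, 1 constant promoter passed the test for a change after DAC and rose, and 0 fell. The test was limma on quantile-normalised log2 fold enrichment over the 20114 regions in all libraries, with the cell line as block and a Benjamini-Hochberg adjusted p of 0.05. Over all 20114 regions, 0.0249% were called higher (5 regions) and 0% lower. At an unadjusted p of 0.05, 368 constant promoters (3.0%) were higher and 543 (4.42%) lower, against 4.71% and 4.8% of all regions. With centring on the median in place of quantile normalization the balance turned, with 476 higher and 379 lower. In 4 of 4 lines, 1101 (8.97%) were higher and 1158 (9.43%) lower, against 9.23% and 8.98% of all regions, so the shares were near the background. For width 0 constant promoters passed (background 0%), with 306 (2.49%) wider and 525 (4.28%) narrower at the unadjusted 0.05, against 3.86% and 3.65% of all regions. These widths were centred on the median of each library, and without centring the direction turned, with 648 wider and 119 narrower. A constant promoter needs a peak in both libraries, which bounds how far its value can move.

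The region that rose was named for DNAAF5, which encodes an assembly factor of the dynein arms of motile cilia. Its fold enrichment was 3.35 in Mock and 6.56 in DAC in A549, 2.52 and 3.98 in H1299, 2.51 and 3.34 in CL1-5, and 3.46 and 4.76 in PC9. The DAC value was the higher one in each line. On the quantile-normalised log2 scale the change was 0.75 ± 0.10 (SE; limma adjusted p = 0.0479). The region, chr7:807303-809106, lay 40967 bp into the gene, so it is not the main start of DNAAF5. The mRNA of DNAAF5 was 11.1, 11.3, 9.75 and 13.5 FPKM in Mock and 8.96, 12.8, 9.70 and 7.59 FPKM in DAC (A549, H1299, CL1-5 and PC9; log2 change -0.26 ± 0.16 over 5 lines, limma adjusted p = 0.52). The call for the region was lost when any 1 of the 4 lines was left out, with log2 changes of 0.65 to 0.84.

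CCDC89, a coiled-coil gene whose 200 bases above hold a single CpG, was next. Its fold enrichment was 3.53 in Mock and 4.77 in DAC in A549, 3.30 and 5.83 in H1299, 3.68 and 5.80 in CL1-5, and 3.16 and 3.91 in PC9. All 4 DAC values stood above all 4 Mock values, but the change of 0.69 ± 0.12 on the normalised log2 scale missed the threshold (limma adjusted p = 0.0991). Its mRNA was listed at 0 FPKM in Mock in each of these 4 lines and at 0.756, 0.697, 0.0583 and 0.337 FPKM in DAC (A549, H1299, CL1-5, PC9; limma adjusted p = 0.204). ZSCAN20, a zinc finger gene, LANCL3, on the X chromosome, and PKD1P1, a pseudogene of PKD1 with near-identical copies, had changes of 0.44 ± 0.10, 0.39 ± 0.10 and 0.43 ± 0.10, with limma adjusted p-values of 0.310, 0.362 and 0.305.

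On the falling side no region passed. GAA, the gene of lysosomal acid alpha-glucosidase, had fold enrichments of 6.37 in Mock and 4.74 in DAC in A549, 4.86 and 3.15 in H1299, 3.59 and 2.71 in CL1-5, and 5.73 and 3.83 in PC9. Each DAC value was below its Mock value, while the groups overlapped between lines (normalised log2 change -0.37 ± 0.09, limma adjusted p = 0.337). The median raw fold enrichment of constant promoters was also lower in DAC in each line. Over the lines it was 5.57 to 6.90 in Mock and 4.61 to 6.49 in DAC. A lower raw value alone is therefore common and no sign of a fall in rank. The mRNA of GAA was 25.3 in Mock and 18.9 FPKM in DAC in A549, 19.9 and 8.32 in H1299, 16.5 and 8.22 in CL1-5, and 9.02 and 5.42 in PC9 (log2 change -0.81 ± 0.14 and lower in 5 of 5 lines, limma adjusted p = 0.131). UBXN2A, NXF1, HIST1H4C and CCDC74A had log2 changes of -0.34 ± 0.08, -0.45 ± 0.10, -0.36 ± 0.09 and -0.38 ± 0.10, with limma adjusted p-values of 0.331, 0.297, 0.337 and 0.353, where the UBXN2A region lay 12133 bp from the annotated start. NXF1 encodes the main mRNA export receptor and HIST1H4C a histone H4. The mRNA of NXF1 did not follow, with a log2 change of 0.06 ± 0.10 (limma adjusted p = 0.808). That of HIST1H4C was low, at 0.161 to 0.852 FPKM in the 8 libraries of the 4 lines. Its log2 change of -0.01 ± 0.40 (limma adjusted p = 0.991) cannot show whether the mRNA followed. That the 10 regions moved the same way in 4 lines is how they were chosen.

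**Figure D2:**
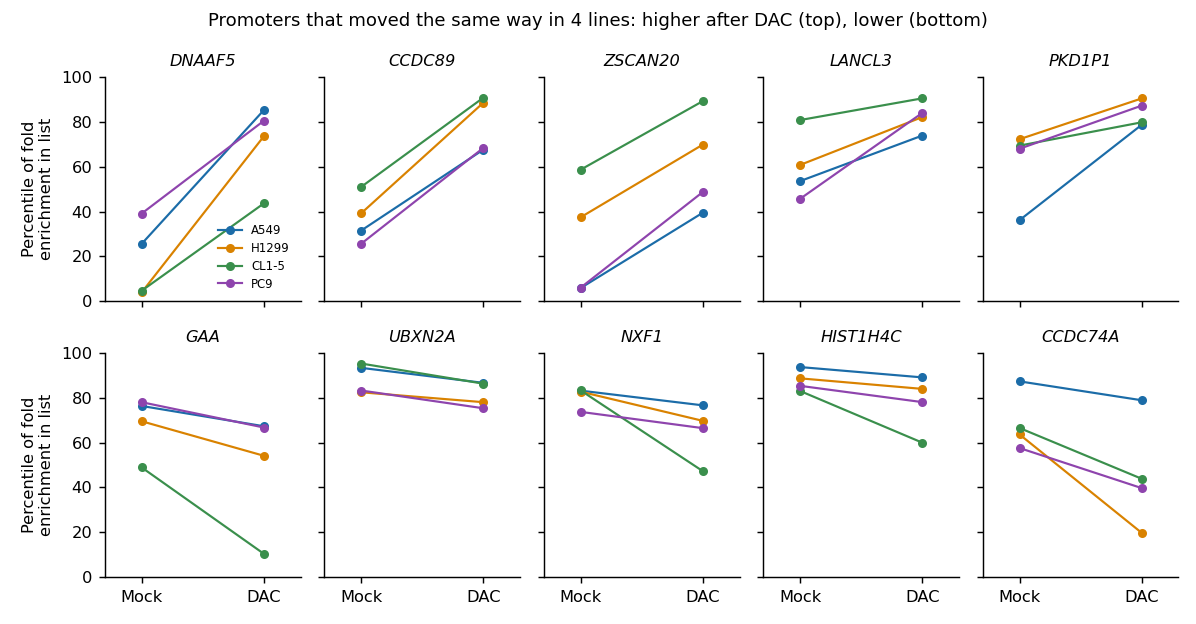
Percentile of fold enrichment within the peak list (y axis) in Mock and DAC (x axis) for the 5 constant promoters that were higher after DAC (top row) and the 5 that were lower (bottom row) with the largest smallest change in quantile-normalised log2 fold enrichment; each line joins the libraries of 1 cell line. DNAAF5 went from 25.6 to 85.3 in A549 and from 3.93 to 73.6 in H1299.

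More constant promoters passed a test for a difference between cell lines than passed for DAC. With Mock and DAC as the libraries of a line, a moderated F test (limma, adjusted p of 0.05) called 2369 constant promoters (19.3%). The background over all 20114 regions was 24.1%, and 31.5% of distal regions were called. The median range between line means was 0.33 on the normalised log2 scale for constant promoters and 0.43 for distal regions. Of the 2369, 1156 (48.8%) were lowest in the libraries labelled CL1-5, and without this line 985 regions were called. Without H1299 the number was 1152. Each line had only these libraries, so a line and its libraries cannot be told apart.

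The widest ranges were at NRXN3, SPDYA, HIF1A-AS2, ZNF790-AS1 and MECR. NRXN3 encodes a synaptic adhesion molecule, and its region lay 1107910 bp into this very long gene, at an inner start. Its fold enrichment was 8.44 and 8.89 in A549 (Mock and DAC), 2.84 and 2.81 in H1299, 10.2 and 8.19 in CL1-5, and 5.65 and 6.08 in PC9. H1299 was the lowest, yet its mRNA was the highest there, at 1.31 and 1.56 FPKM, against 0.0214 to 0.433 FPKM in the other 3 lines. The H1299 mRNA libraries stood apart, so levels compared between H1299 and other lines are uncertain. Of genes without a promoter region, 13.4% (Mock) and 16.2% (DAC) reached 0.1 FPKM in H1299, against 33.9 to 44.9% in the other 3 lines. MECR, a mitochondrial fatty acid synthesis enzyme, had 7.63 and 7.62 in A549, 7.61 and 6.84 in H1299, 2.57 and 2.81 in CL1-5, and 9.45 and 7.16 in PC9. The libraries labelled CL1-5 were the low ones, and MECR mRNA was 11.8 and 9.53 FPKM in CL1-5 and 3.79 to 7.2 FPKM elsewhere. By the labels, the mRNA of neither gene was highest in the line with the highest region. With CL1-5 and PC9 exchanged this stayed so for NRXN3, while for MECR the line with the highest region was then also the one with the most mRNA. The ranges of SPDYA, a cell cycle regulator, of HIF1A-AS2, an antisense transcript, and of ZNF790-AS1 were 1.67, 1.66 and 1.60 on the normalised log2 scale, with limma adjusted p-values of 0.000336, 0.000500 and 0.000522.

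**Figure D3:**
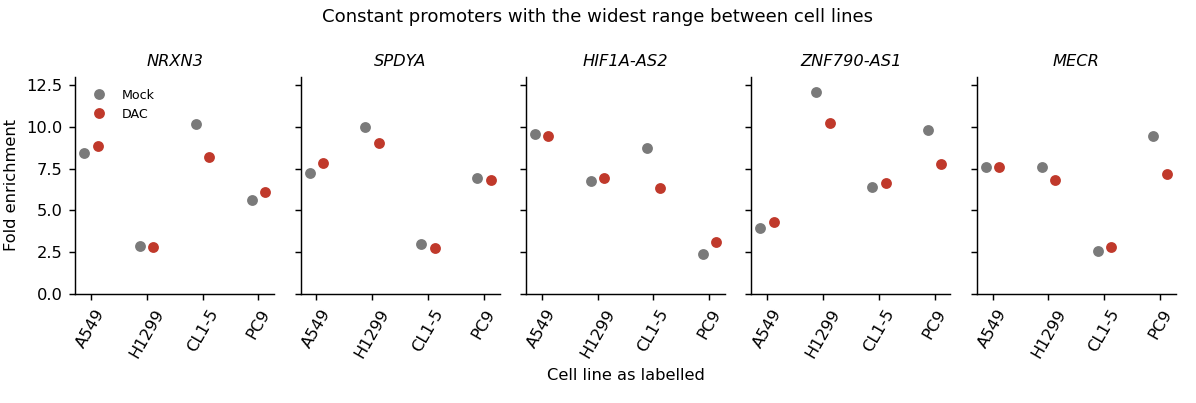
Fold enrichment (y axis) of the 5 constant promoters with the widest range between line means, by cell line as labelled (x axis), with Mock in grey and DAC in red. NRXN3 was lowest in H1299 (2.84 and 2.81) and MECR in CL1-5 (2.57 and 2.81). The Mock and DAC libraries of a line lay apart in some cases, as at MECR in PC9 (9.45 and 7.16).

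Lines were matched over 1266 genes with a line difference at their constant promoter. Only genes whose mean mRNA reached 1 FPKM in at least 1 line and differed at least 2-fold between lines were kept. The line of the highest rank was also the line of the highest mRNA for 315 (24.9%) by the labels. With CL1-5 and PC9 exchanged it was 382 (30.2%). By line, as labelled, the share was 26.5% in A549, 29.9% in H1299, 15.7% in CL1-5 and 24.9% in PC9. With the names exchanged it was 28.3% in CL1-5 and 35.5% in PC9. With 4 lines equally likely to hold the highest mRNA, chance alone would give close to the 24.9% found by the labels. That share therefore shows no agreement beyond chance. Whether the shares by line or with the names exchanged exceed chance was not tested, and no share for other genes is given. Levels of H1299 mRNA against the other lines are uncertain here too, as said for NRXN3.

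Most genes at constant promoters were expressed. The names on the regions gave 12244 symbols, of which 11737 were found in the mRNA table (11732 genes). An FPKM of at least 1 was reached by 76.2 to 78.8% of these genes in the 8 libraries of the 4 lines. At variable promoters the share was 17.9 to 24.4% of 5600 genes, and without a promoter region 7.62 to 12.8% of 18744. Without a promoter region the lowest shares were in H1299, at 7.62% (Mock) and 8.30% (DAC). The median level was 4.31 to 4.74 FPKM at constant promoters and 0.0308 to 0.134 FPKM at variable promoters. In CL1-0 and H1792, which had no ATAC library, 75.3 to 78.3% of the genes at constant promoters reached 1 FPKM. At the limit of 0.1 FPKM the share over the 8 libraries rose to 91.4% from 77.0%. Bulk mRNA cannot tell fewer expressing cells from less RNA per cell.

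Among the 2933 lowest-ranked genes 61.0 to 66.9% reached 1 FPKM, and among the 2933 highest-ranked 84.5 to 86.3%. The medians of these groups were 2.28 to 3.22 and 5.45 to 6.02 FPKM. Over all 11732 genes Spearman's correlation of percentile and FPKM was 0.0597 to 0.191 by library, where genes share the library and are not independent. Actin shows the spread, as ACTG1 had a mean percentile of 9.47 and 993 to 2567 FPKM.

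**Figure D4:**
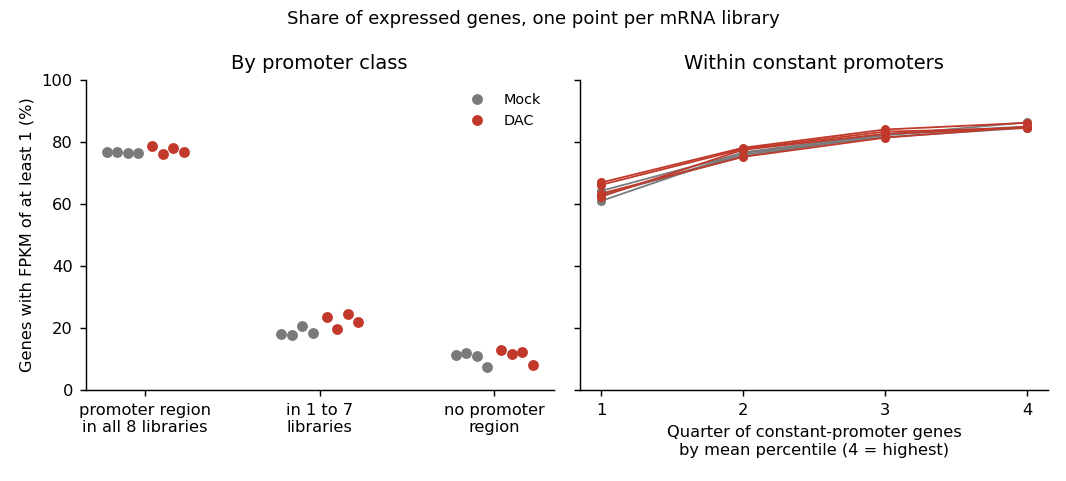
Share of genes with an FPKM of at least 1 (y axis, %) in each mRNA library of A549, H1299, CL1-5 and PC9, by promoter class (left) and, for genes at constant promoters, by mean percentile in 4 groups of 2933 genes (right), with Mock in grey and DAC in red. Genes at constant promoters lay at 76.2 to 78.8% and the other classes at 7.62 to 24.4%, and the share rose from 61.0 to 66.9% in the lowest group to 84.5 to 86.3% in the highest.

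Some constant promoters carried the name of a gene with very little mRNA signal. Of the 11732 genes, 288 (2.45%) were under 0.1 FPKM in each of the 8 libraries, and 76 of these had at most 3 reads in any, while CACNB4, a calcium channel subunit, had up to 188. Genes that every cell uses were among the 288, such as EEF1G (at most 2 reads), a translation elongation factor subunit, and POLR2F (28), an RNA polymerase subunit, so a low value here does not show that a gene made no mRNA. For 67 of the 288 (23.3%) another gene with at least 1 FPKM started in the same region, close to the 21.8% of all genes at constant promoters. Such a neighbour was found for 35 of the 72 highest-ranked (48.6%) and for 5 of the 72 lowest-ranked (6.94%) of these genes. The median percentile was 87.0 with such a neighbour and 65.4 without.

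The 5 highest were ENPP3, CRHR1, SARNP, CCDC83 and CFAP61. ENPP3, an ectonucleotidase of basophils and epithelia, had a mean percentile of 99.2 and at most 10 reads in a library. The stretch shown above for ENPP3 is the whole interval to MED23, a Mediator subunit that starts on the other strand and had up to 5.46 FPKM. CFAP61, a cilia gene (98.3), shares its region with the start of CRNKL1, a splicing factor with up to 17.6 FPKM. SARNP (98.5), an mRNA export protein, overlaps other annotated genes, and the way reads of overlapping genes were assigned can leave a gene with almost none, so its value is uncertain. CRHR1 (99.2) had a region 163483 bp from its annotated start, next to LINC02210. At CCDC83 (98.5) the other gene that starts in the region was listed at 0 FPKM.

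After DAC, 3 genes at constant promoters passed the test for mRNA and rose, and 0 fell. The test was limma on log2(FPKM + 0.1) in 5 lines, all but H1792, over the 22603 genes whose mean reached 0.1 FPKM, at an adjusted p of 0.05. Over all genes tested, 0.119% were called higher and 0% lower, and of the 11129 tested genes at constant promoters 0.0270% were higher. At the unadjusted 0.05, 587 genes at constant promoters (5.27%) were higher and 717 (6.44%) lower, against 8.07% and 4.4% of all genes. At variable promoters 19.3% of 3361 genes were higher and 1.84% lower. The median log2 change was 0.00 at constant promoters, 0.27 at variable promoters and 0.07 over all genes. A log2 change of at least 1 was seen in 1.37% of genes at constant promoters and 13.4% at variable promoters, and, among genes whose mean reached 1 FPKM, in 1.0% of 9492 and 14.8% of 1491. By line, 1.5 to 6.25% of genes at constant promoters and 6.32 to 18.9% at variable promoters were at least 2-fold higher. The classes were set from Mock and DAC peaks together, so a promoter with a peak only after DAC counted as variable. The median Mock level over all genes at variable promoters was 0.0247 to 0.0394 FPKM in the 5 lines. The filter used the mean of Mock and DAC, and genes with so little mRNA have more room to rise than to fall. Whether the contrast between the classes reflects how they were chosen was not tested, so it stands as a description.

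BST2, the interferon-stimulated tetherin, was the largest of the 3. Its mRNA was 0.167 in Mock and 7.10 FPKM in DAC in A549, 0.265 and 6.94 in CL1-0, 1.09 and 75.4 in CL1-5, 0.0860 and 6.99 in PC9, and 0.313 and 2.33 in H1299. All DAC values were above all Mock values (log2 change 4.57 ± 0.44, SE, limma adjusted p = 0.0255). The region with its name lay inside the gene, 1759 bp from its start, with percentiles of 46.8 and 32.5 in A549, 48.9 and 22 in H1299, 11.3 and 7.34 in CL1-5, and 54.7 and 61.3 in PC9. The call was lost without A549, CL1-0, CL1-5 or PC9 (log2 changes of 4.21 to 4.64). The region showed no change in fold enrichment that passed the test (normalised log2 change -0.14 ± 0.09, limma adjusted p = 0.666).

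The other 2 were histone H2B genes. HIST2H2BE had 3.02 in Mock and 7.82 FPKM in DAC in A549, 1.2 and 7.25 in CL1-0, 4.36 and 12.9 in CL1-5, 2.24 and 7.35 in PC9, and 13.1 and 31.2 in H1299. It was higher after DAC in each line, while the groups overlapped because H1299 was high in Mock (log2 change 1.65 ± 0.19, limma adjusted p = 0.038). HIST1H2BD had 9.80 and 18.4 in A549, 3.99 and 14.7 in CL1-0, 5.46 and 20.6 in CL1-5, 4.58 and 9.62 in PC9, and 32.0 and 101 in H1299, again higher in each line (1.47 ± 0.18, limma adjusted p = 0.0488). The promoters of HIST2H2BE and HIST1H2BD had changes in normalised log2 fold enrichment of -0.02 ± 0.09 and -0.05 ± 0.09 (limma adjusted p = 0.956 and 0.885). Over the list, 2 of 54 tested histone cluster genes rose, and 31 were higher and 0 lower at the unadjusted 0.05, with a median log2 change of 0.90. Levels in this list were low, with medians of 0.401 to 3.69 FPKM by library for its genes at constant promoters. Without any 1 of the 5 lines the calls for both genes were lost (log2 changes of 1.37 to 1.62 for HIST1H2BD and 1.45 to 1.76 for HIST2H2BE).

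The other large changes did not pass the test. MYL9, a myosin light chain, CKM, muscle creatine kinase, DNAH3, a dynein heavy chain, and IFFO1, an intermediate filament family gene, had log2 changes of 3.42 ± 1.00, 2.66 ± 0.49, 2.55 ± 0.61 and 2.53 ± 0.44, with limma adjusted p-values of 0.286, 0.153, 0.224 and 0.131. The spread between lines was wide, as MYL9 was 0.0131 in Mock and 20.8 FPKM in DAC in CL1-5, against 43.5 and 59.4 in CL1-0. The region named for CKM lay 3004 bp from its annotated start, and those of LMF1 and PEX11G 9737 and 8124 bp. On the other side were LMF1, a lipase maturation factor (-1.21 ± 0.29), TTLL1, a tubulin glutamylase subunit (-1.19 ± 0.17), NT5M, a mitochondrial nucleotidase (-0.97 ± 0.25), PEX11G, a peroxisome factor (-0.96 ± 0.24), and NIBAN1, a stress-response gene (-0.95 ± 0.28), with limma adjusted p-values of 0.224, 0.0821, 0.260, 0.246 and 0.286. Rank changes at the promoters of the 10 genes with the largest changes did not pass the test, the lowest limma adjusted p being 0.476 (PEX11G).

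Over the lists, genes of protein synthesis and mitochondria had small negative values. Of 85 tested ribosomal protein genes, 57 were lower and 1 higher at the unadjusted 0.05, 0 passed the adjusted threshold in limma, and the median log2 change was -0.47. Over all genes 4.4% were lower and 8.07% higher at this p, with a median of 0.07. For 78 mitochondrial ribosomal protein genes 18 were lower and 0 higher (median -0.31), for 37 complex I subunits 8 and 0 (-0.27), for 34 tRNA synthetases 9 and 0 (-0.20), and for 55 initiation factors 7 and 0 (-0.16). Proteasome subunits (0 lower, 1 higher of 37, median -0.08), cell cycle genes (0 and 0 of 20, -0.07), kinesins (1 and 1 of 36, 0.01) and housekeeping enzymes (0 and 0 of 17, -0.14) had values near 0. RNA polymerase II subunits (2 lower, 0 higher of 11, -0.23) and splicing factors (3 and 0 of 28, -0.19) lay between.

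In the opposite direction, of 485 zinc finger genes 68 were higher and 11 lower at the unadjusted 0.05 (median 0.22), and of 25 interferon-stimulated genes 19 were higher and 0 lower (median 1.46), of which BST2 passed. Over all genes the shares were 8.07% higher and 4.4% lower. Of 15 antigen processing genes 6 were higher and 0 lower (0.50), and of 18 γδ T cell ligands and adhesion genes 4 and 0 (0.21). In the list of cytoskeleton genes, 6 of 16 were higher and 1 lower, with a median of -0.02. This list was put together here and is not a gene set of the study, though the study had picked out some of its genes on these samples. The counts were 3 higher and 0 lower of 22 tubulins (0.12), 2 and 0 of 28 keratins (0.55), 1 and 0 of 13 DNA methylation genes (0.09), and 0 and 2 of 12 histone deacetylases with SMARCA4 (-0.17). MAGE genes, without a constant promoter, had 1 gene past the adjusted threshold and 8 of 18 higher at the unadjusted 0.05 (1.83), and olfactory receptors had 1 of 19 (0.16). Marker lists of epithelial (2 of 6 higher), leukocyte (1 of 4), fibroblast (3 of 4) and endothelial cells (1 of 2) had no gene past the adjusted threshold.

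Within a line, changes in mRNA and in rank of the constant promoter were nearly unrelated. Spearman's correlation over 9174 to 9405 genes was 0.08 in A549, -0.02 in H1299, -0.04 in CL1-5 and 0.05 in PC9 by the labels, and -0.03 and -0.02 for the CL1-5 and PC9 mRNA with the names exchanged. In A549, the 477 genes that were at least 2-fold higher in mRNA had a median rank change of 3.88 percentile points, the 520 at least 2-fold lower 1.65, and all genes 2.23. In H1299 the values were 4.16 for 429 genes, 4.08 for 342 genes and 3.24, and in PC9 2.93 for 237 genes, 2.69 for 39 genes and 2.18. In CL1-5 both groups lay below all genes, with -3.70 for 186 genes, -3.26 for 95 genes and -1.76 for all. With the names exchanged, the values were 3.81, 4.16 and 2.11 for CL1-5 mRNA and -4.28, -0.43 and -1.79 for PC9 mRNA.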

How the data were processed

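Members and gene lists were chosen with earlier results of these data known. For Omni-ATAC-seq, the authors trimmed reads with CutAdapt, aligned them to hg19 with BWA 0.7.17-r1188, removed duplicates with Picard 2.21.4 and SAMtools 1.9, called broad peaks per library with MACS2 2.2.5 and annotated them with ChIPseeker 1.20.0. Each deposited peak list gives the fold enrichment (a ratio over local background), −log10 p- and q-values, a score, which was not used, and the width of each peak. For mRNA-seq, the authors trimmed reads, mapped them (RSEM running bowtie2, hg19), counted reads for each gene and deposited FPKM from DESeq2 1.24.0 and a mean normalized signal per gene; the submitters' processing notes also name TopHat2 2.1.1. The deposited log2 fold change, its error, test score and p-values of the authors' own comparison were not used.

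Peaks were pooled and merged, ranked within their list and tested with limma 3.58.1 in R 4.3.3 on quantile-normalised log2 fold enrichment, or on log2 width centred on its median, over 20114 regions, and on log2(FPKM + 0.1) over the 22603 genes whose mean in 5 lines reached 0.1 FPKM, with the line as block, an intensity trend and Benjamini-Hochberg adjustment. Mock and DAC libraries share a line, and their fold enrichments correlated better within lines (0.880 to 0.945) than between lines (0.736 to 0.881), so the line was kept as the pairing. Changes over lines were tested with exact sign-flip permutation in Python 3.11.15. The tests were checked on simulated data.

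Names on regions were matched to the mRNA table by Ensembl ID and otherwise by symbol, for 95.9% of them. Gene starts, sequences and motif windows came from GRCh37 with GENCODE. Reads behind the FPKM values, recovered from the mean signal, were 22234485 to 25303899 per library and 52634234 and 59735913 in H1299, whose numbers are mostly even. 100% of the values came out whole within 0.05. ATAC-seq depth per library was not used here. Every value column belonged to a known sample (0 did not).

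Regions were named by rule, leaving out chromosome 8. The rule takes the 5 highest and lowest by mean percentile, the 5 widest, the 5 with the largest smallest-change in each direction (among those past the threshold or, where fewer than 5 passed, those moving the same way in 4 lines), and the 5 with the widest range between lines. Genes are the ends of each of 27 lists, listed genes of the study without a region, the 5 highest-ranked under 0.1 FPKM, and the 5 with the largest rise and fall in mRNA among those moving alike in 5 lines. Called regions and genes were also named. Some items that the rule names are not reported here. DNMT1, DNMT3A, DNMT3B, MED23, CRNKL1, CACNB4, EEF1G, POLR2F and RPL19 were named after their values were seen. Alternatives covered peak strictness, list length, distance, ranking measure, normalization, block, trend, pseudocount, filter, lines and the exchange of CL1-5 and PC9. Figures were drawn with matplotlib 3.10.9.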

Additional observations from a re-analysis of the deposited data

Results flagged for a closer look

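In 16 of 77 groups of 4 Mock or 4 DAC libraries, 1 library lay far from the other 3 by Dixon's test of the gap over the range, where chance gives about 1 in 20 groups. Of these, 7 were at regions named for their wide range between lines, where a library far from the rest is part of the choice. They were HIF1A-AS2 in PC9 (percentile 1.15 in Mock and 38.0 in DAC), MECR in CL1-5 (5.80 in Mock and 14.3 in DAC), NRXN3 in H1299 DAC (29.7), SPDYA in CL1-5 DAC (10.5) and ZNF790-AS1 in A549 DAC (60.8).

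At the 5 strongest promoters such values were all close to 100, at GUSBP9 in PC9 (99.95 in Mock and 99.98 in DAC), SMA5 in PC9 DAC (99.88), DUX4L3 in A549 Mock (99.66) and GCA in H1299 Mock (99.88). At the weakest, HES1 had 4.04 in H1299 DAC and CIRBP 1.43 in PC9 Mock. Among promoters named for their difference after DAC, 2 that did not pass the test had such a library. PKD1P1 had 36.1 in A549 Mock, below the other Mock libraries, and NXF1 had 73.7 in PC9 Mock, below the other Mock libraries.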

How the results depend on the processing

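The number of constant promoters was 12275, and 9023 to 13252 under all alternatives. The mean rank change reversed from 1.65 to -0.89 percentile points with the same number of peaks in every list, and kept its sign under the others (1.04 to 2.76 with a line left out, the last without CL1-5). With equal numbers of peaks CL1-5 had -3.83 and the other lines -0.41 to 0.78. The number of constant promoters that rose in rank was 1 and became 2 with centring on the median, when CCDC89 passed as well, 5 with ranks by −log10 p, and 0 without the block (no cell line term), without the trend, with peaks at a q-value under 0.01, with equal numbers of peaks, and with any 1 line left out (0 to 0). It was 0 for falls and for width under every alternative. The number with a line difference was 2369, and 985 to 2124 with 1 line left out. In mRNA, 3 genes rose; the number was 11 with H1792, 6 at a mean FPKM of at least 1, 5 after rescaling to a common sum, 1 after quantile normalization, 0 with a pseudocount of 1, without the filter, without the trend, in the 4 lines with ATAC-seq or without the block, and 0 to 2 with 1 line left out. Thus BST2, HIST1H2BD and HIST2H2BE, like DNAAF5, were near the threshold, and their direction held in each alternative. The share of genes at the limit of 0.1 FPKM was 91.4% instead of 77.0%, and the share with the same highest line was 30.2% with the names exchanged. The causes were not tested. With 4 lines no sign-flip p under 0.13 can be had, and the unknown ATAC-seq depth limits what list ranks can show.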

Other observations

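By chromosome, the share of promoter regions that were open in all 8 libraries ran from 29.9% on chromosome 21 (111 of 371) to 46.2% on chromosome 13 (217 of 470), with 38.9% on the X chromosome (344 of 885). Chromosome 19, rich in zinc finger genes, held 891 of 2392 (37.2%).

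The names on the regions undercount the genes. Of 1027 genes with no constant promoter in their name and at least 1 FPKM in all 8 libraries, 545 had their start inside a constant promoter named for another gene. Conversely, of 11716 genes with a constant promoter, the annotated gene start lay in the region for 8991 (76.7%) and more than 3000 bp away for 1644 (14.0%).

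Constant promoters held 22.2 to 44% of the base pairs covered by a list, and 2.0 to 4.09% of them consisted of 2 or more peaks in a library. In 434 to 1170 of the 12275 a library ranked the region under its 25th percentile, with the highest number in CL1-5 DAC (9.53%) and the lowest in A549 Mock (3.54%).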
